A study of Mus musculus with 2 samples.

Results

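Guanylate-binding proteins (GBPs) and immunity-related GTPases (IRGs) are 2 families of interferon-induced GTPases, and 10 of their genes were followed in single lung cells: Gbp2, Gbp2b, Gbp3, Gbp4, Gbp5, Gbp7, Gbp8, Irgm1, Irgm2 and Iigp1. The genes were chosen by symbol, each symbol matched 1 gene identifier, and they are 10 of the 55357 genes in the count matrices. The lungs came from female Balb/C mice carrying an orthotopic osteosarcoma of the K7M2 line, which is a mouse bone tumour line that spreads to the lung. The treated mice received 1V209-Cho-Lip, which the study's title calls a nanomedicine that activates TLR7, an endosomal receptor for single-stranded RNA, and the control mice received PBS. Both groups carried the tumour. The lungs of 3 mice were pooled into 1 library per group, so differences between mice cannot be seen, and the dose and time of sampling were not given in the sources used here.

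With 1 library per group no test of the treatment is possible, so values are given with intervals that cover counting error only, and nothing below carries a p-value. Expression is given as counts of unique molecular identifiers (UMIs, which count captured RNA molecules) scaled to counts per 1000000 UMIs (CPM), summed over the cells of a library or class, with an exact 95% Poisson interval where one is printed. A ratio is the CPM of the 1V209-Cho-Lip library over that of the PBS library, with an exact conditional 95% interval, and a gene is called higher or lower where the ratio passes 1.5-fold. CPM is not corrected for gene length, so levels are compared between cells and not between genes. A class is called like a cell type from its marker genes, and 25 classes had at least 50 cells in each library.

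GBPs are large GTPases that interferon-gamma and, more weakly, type I interferons induce in most cells. They assemble on the membranes of intracellular bacteria and of vacuoles that hold parasites, break these open and help inflammasomes to detect what is released. Among the IRGs, Iigp1 is an effector that is loaded onto such vacuoles, while Irgm1 and Irgm2 are regulators that keep effectors inactive on the cell's own membranes. Gbp2 and Gbp5 are studied as vacuole-targeting and inflammasome-promoting members, and Gbp7 in the assembly of the phagocyte oxidase. In lung, the families are part of the interferon response of macrophages, endothelium and epithelium.

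The genes lie in clusters, which bears on how reads can be assigned. On GRCm38, Gbp5 (ENSMUSG00000105504, chromosome 3, 142493978 to 142522344), Gbp7 (ENSMUSG00000040253, 142530342 to 142550149), Gbp3 (ENSMUSG00000028268, 142560026 to 142573209), Gbp2b (ENSMUSG00000040264, 142594847 to 142619179) and Gbp2 (ENSMUSG00000028270, 142620602 to 142638008) follow each other on the plus strand of chromosome 3. Gbp4 (ENSMUSG00000079363, chromosome 5, 105115767 to 105139586) and Gbp8 (ENSMUSG00000034438, 105014150 to 105139540) overlap each other and Gbp9 on the minus strand, so the split of reads between these similar genes is uncertain. Irgm2 (ENSMUSG00000069874, chromosome 11, 58199618 to 58222782) overlaps Igtp on the plus strand, and the same uncertainty applies there. Irgm1 (ENSMUSG00000046879, chromosome 11, 48861968 to 48871683) lies on the minus strand, and Iigp1 has the identifier ENSMUSG00000054072.

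The promoter windows show what the genes share in sequence. Each window runs from 250 bases before to 50 bases after the start of a RefSeq gene on GRCm38.p6, and a window was at hand for 7 of the 10 genes. Capitals mark matches to TTCNNNGAA, the core of the gamma-activated site, and to GAAA, 2 spacer bases and GAAA, or the same read on the other strand, the core of the interferon-stimulated response element that interferon regulatory factors bind. Both strands were searched. The 4 windows printed belong to members that were higher in some cell classes and lower in others: Gbp5 (chr3:142496684-142496983, plus strand), Gbp2 (chr3:142620413-142620712, plus strand), Irgm1 (chr11:48871371-48871670, minus strand) and Irgm2 (chr11:58214727-58215026, plus strand).
Gbp5: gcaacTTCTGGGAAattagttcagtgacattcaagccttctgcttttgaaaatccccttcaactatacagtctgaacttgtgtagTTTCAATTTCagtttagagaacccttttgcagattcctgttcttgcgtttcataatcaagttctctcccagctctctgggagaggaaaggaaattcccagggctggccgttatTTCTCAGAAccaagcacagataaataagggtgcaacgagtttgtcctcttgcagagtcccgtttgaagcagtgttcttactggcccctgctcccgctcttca
Gbp2: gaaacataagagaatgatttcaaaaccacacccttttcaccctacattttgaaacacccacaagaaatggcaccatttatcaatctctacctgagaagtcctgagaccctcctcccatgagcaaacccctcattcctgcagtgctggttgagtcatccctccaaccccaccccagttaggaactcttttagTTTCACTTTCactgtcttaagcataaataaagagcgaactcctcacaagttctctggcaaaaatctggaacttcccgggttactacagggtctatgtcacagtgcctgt
Irgm1: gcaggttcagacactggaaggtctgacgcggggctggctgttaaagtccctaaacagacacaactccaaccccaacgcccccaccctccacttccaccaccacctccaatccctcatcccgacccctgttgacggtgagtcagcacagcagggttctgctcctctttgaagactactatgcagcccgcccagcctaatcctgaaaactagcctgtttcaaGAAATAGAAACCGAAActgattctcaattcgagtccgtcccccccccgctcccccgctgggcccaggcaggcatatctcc
Irgm2: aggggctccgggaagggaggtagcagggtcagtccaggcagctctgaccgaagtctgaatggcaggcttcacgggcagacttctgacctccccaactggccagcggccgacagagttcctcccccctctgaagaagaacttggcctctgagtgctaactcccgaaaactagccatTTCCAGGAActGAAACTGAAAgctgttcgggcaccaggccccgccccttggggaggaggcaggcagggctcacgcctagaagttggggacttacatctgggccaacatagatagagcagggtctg

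The response-element core was present in 7 of the 8 windows of these 7 genes, against 3.44% of all 32851 mouse windows of this length. Each gene had a match, and the window without one is the second of 2 for Gbp3. In Gbp2 it begins 59 bases upstream of the start. In Irgm1 it occurs in overlapping copies that begin 30 and 24 bases upstream. The gamma-activated core was present in 3 of the 8 windows, those of Gbp5, Gbp7 and Irgm2, against 8.3% of all windows. Gbp5 holds it 245 and 52 bases upstream with a response-element core 165 bases upstream, and Irgm2 holds it 75 bases upstream beside a response-element core at 64 bases. A match describes the letters of the window and does not show that a factor binds there. Gbp4, Gbp8 and Iigp1 have no window in the table.

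The 1V209-Cho-Lip library kept 12328 cells with a median of 2510 UMIs and the PBS library 12642 cells with a median of 2197 UMIs. Neutrophil-like cells numbered 4508 in the 1V209-Cho-Lip library and 1574 in the PBS library. Free RNA in the droplets differed as well: the neutrophil gene S100a8 had a UMI in 44.0% to 73.2% of the cells of every other class in the 1V209-Cho-Lip library, against 4.69% to 24.5% in the PBS library. The haemoglobin gene Hbb-bs went the other way, with a UMI in up to 9.83% of the cells of every class but erythroid-like cells in the 1V209-Cho-Lip library, against 20% to 33.3% in the PBS library. The libraries share 268 barcode sequences. An unnamed group of 43 cells in the 1V209-Cho-Lip library and 128 in the PBS library, led by Def8, Crabp2, Prl2c2 and Col1a1, had very many UMIs per cell, with medians of 68963 and 51235, and is described on its own because it moves the whole-library values.

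Over the whole lung the 10 genes did not move together. Gbp2 stood at 133 CPM in the 1V209-Cho-Lip library, against 110 CPM in the PBS library (6169 and 5002 UMIs), a ratio of 1.21 (1.17 to 1.26). Gbp2b, the gene long known as Gbp1, was at 35.7 CPM against 27.0 CPM, with a ratio of 1.32 (1.22 to 1.42). These were the members with the highest ratios, and neither reached 1.5-fold.

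Gbp4 and Gbp8, the pair on chromosome 5, had the lowest ratios. Gbp4 had 37.1 CPM in the 1V209-Cho-Lip library and 70.8 CPM in the PBS library, a ratio of 0.524 (0.494 to 0.556). Gbp8 had 12.4 CPM against 24.1 CPM, a ratio of 0.515 (0.465 to 0.571). No member was called higher and 2 of 10 were called lower, where over all 20415 genes measured 13.6% were higher and 19.5% lower, so the count is near the background.

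The other members lay between these. Gbp3 was at 27.1 CPM in the 1V209-Cho-Lip library against 36.7 CPM in the PBS library (0.737, 0.685 to 0.794), and Gbp5 at 22.4 CPM against 25.4 CPM (0.883, 0.811 to 0.960). Gbp7 was at 72.2 CPM against 77.4 CPM (0.932, 0.889 to 0.977). Of the IRG genes, Irgm1 was at 37.3 CPM against 33.7 CPM (1.11, 1.03 to 1.19), Irgm2 at 34.4 CPM against 30.3 CPM (1.14, 1.06 to 1.22) and Iigp1 at 74.5 CPM against 75.6 CPM (0.985, 0.940 to 1.03). The 7 GBP genes together had a ratio of 0.915 and the 3 IRG genes 1.05.

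The median log2 ratio of the members was -0.06, and that of all genes was -0.20. Scaling by trimmed means (TMM) moves all genes by 0.19 on the log2 scale and turns the members' median to 0.13, with Gbp2b then called higher, so 1 higher and 2 lower. Scaling by the median of ratios turns the median to 0.10 with 0 higher and 2 lower. The direction of the family as a whole over the lung therefore depends on the scaling, while Gbp4 and Gbp8 were lower under each.

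Leaving out the Def8-led cells changed the picture for several members. Those cells hold 5.77% of all UMIs in the 1V209-Cho-Lip library and 13.7% in the PBS library, and 14.8% and 12.2% of the UMIs of the 10 genes. Without them Iigp1 was at 58.1 CPM in the 1V209-Cho-Lip library against 74.2 CPM in the PBS library (0.783), and Gbp5 at 20.4 CPM against 28.5 CPM (0.717). Gbp3, Gbp4 and Gbp8 were then called lower, 3 of 10 against a background of 17%, and none higher against 13.2%. The members' median became -0.28 and that of all genes -0.18.

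**Figure D1:**
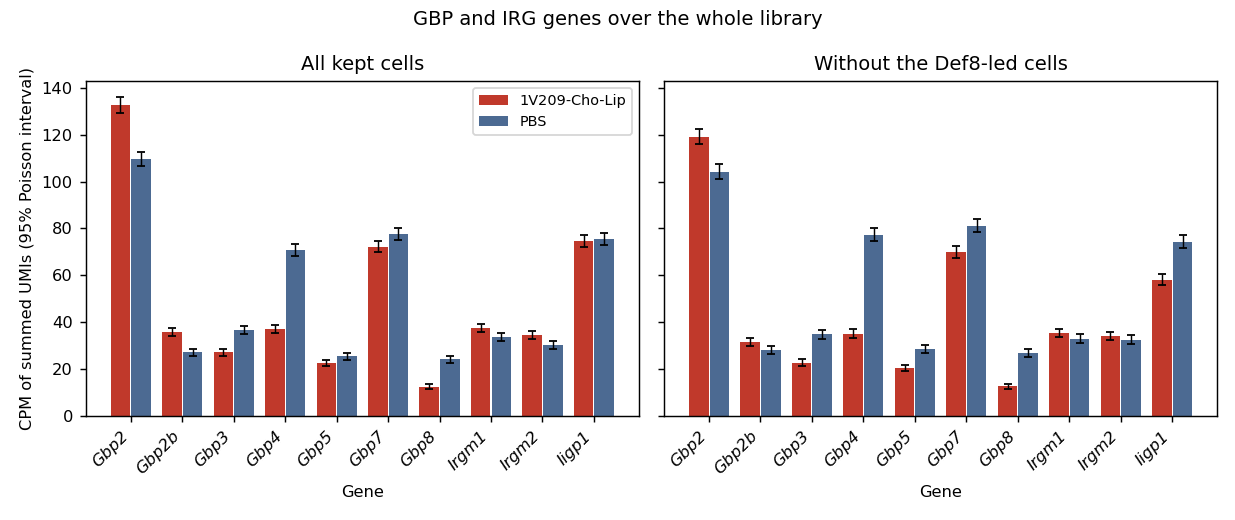
Summed CPM of each member in the 1V209-Cho-Lip library (red) and the PBS library (blue), with exact 95% Poisson intervals for counting error, over all kept cells on the left and without the Def8-led cells on the right. Gbp4 and Gbp8 are lower in the 1V209-Cho-Lip library on both sides, and the Iigp1 bars are level on the left and differ, at 58.1 and 74.2 CPM, on the right.

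Within cell classes the genes were lower in the 1V209-Cho-Lip library more often than higher. Of 250 pairs of a class and a member, 186 had at least 20 UMIs over both libraries. Of these, 68 (36.6%) were called lower, against 11.8% of all gene and class pairs, and 12 (6.45%) were called higher, against 14.4%. The ratio was below 1 in 139 of the 186, the median log2 ratio was -0.37, and the median was below 0 in 19 of the 24 classes with a measured member. In 58 of the 68 lower pairs and 9 of the 12 higher pairs the interval left out 1. The classes share 2 libraries and the same free RNA, so these pairs are not independent, and whether the free RNA that differs between the libraries enters them was not tested.

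**Figure D2:**
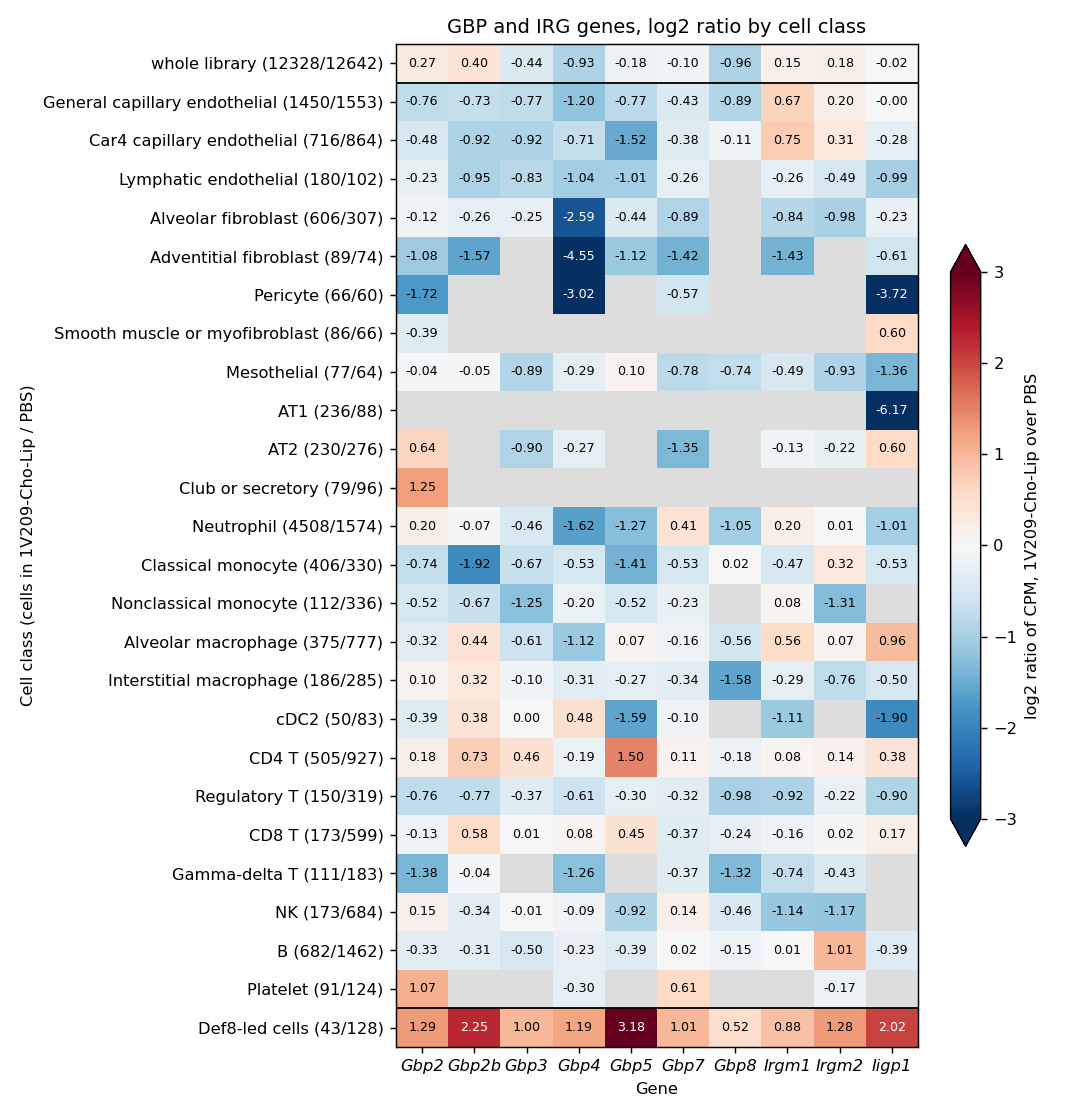
Log2 ratio of CPM, 1V209-Cho-Lip over PBS, for each member (columns) in the whole library, the 24 classes with a measured member and the Def8-led cells (lines from top to bottom, with cells per library in brackets). Blue is lower and red higher in the 1V209-Cho-Lip library, grey marks pairs under 20 UMIs; the Gbp4 column is blue in most classes and the Def8-led line is red throughout.

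The called classes differed between the genes. Over all gene and class pairs 11.8% were lower and 14.4% higher. Gbp4 was lower in 10 of 21 classes measured and higher in none, Gbp3 was lower in 8 of 17 and higher in none, and Gbp8 was lower in 6 of 13 and higher in none. Gbp5 was lower in 8 of 17 and higher in CD4 T-like cells. Gbp2b was lower in 7 of 18 and higher in CD4 T-like cells. Gbp2 was lower in 6 of 23 and higher in 3. The regulator Irgm1 was lower in 6 of 19 and higher in both capillary endothelial-like classes. Irgm2 was lower in 5 of 18 and higher in B-like cells. Iigp1 was lower in 8 of 19 and higher in 3, and Gbp7 was lower in 4 of 21 and higher in platelet-like cells. Of the lower classes, the interval left out 1 in 9 for Gbp4, 5 for Gbp3, 5 for Gbp8, 7 for Gbp5 and 6 for Gbp2b. For the others it did so in 6 for Gbp2, 4 for Irgm1, 4 for Irgm2, 8 for Iigp1 and 4 for Gbp7. Of the higher classes, it left out 1 in 2 for Gbp2, 2 for Iigp1 and none for Gbp7.

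In capillary endothelium GBP genes and Irgm1 went opposite ways. General capillary endothelial-like cells (1450 cells in the 1V209-Cho-Lip library and 1553 in the PBS library) had 126 CPM of Gbp4 in the 1V209-Cho-Lip library, against 289 CPM in the PBS library, a ratio of 0.435 (0.386 to 0.490). Gbp2 was at 109 CPM against 185 CPM, a ratio of 0.591 (0.516 to 0.676). Gbp2b, Gbp3, Gbp5 and Gbp8 had ratios between 0.541 and 0.605, so 6 of 10 members were lower, against 9.92% of genes in this class.

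Irgm1 went the other way in the same cells. It had 117 CPM in the 1V209-Cho-Lip library and 73.4 CPM in the PBS library, a ratio of 1.59 (1.35 to 1.88), and was the only member called higher there, against 12.9% of genes. Iigp1, the vacuole-loaded effector, stood at 292 CPM in both libraries. The summed CPM of the 6 neutrophil markers in these cells was 1159 CPM in the 1V209-Cho-Lip library and 200.2 CPM in the PBS library, and its part in these ratios was not tested.

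The class is made of 3 clusters that the libraries fill differently, and the members were not among the genes used for clustering. Cluster 1 holds 54.3% of the class in the 1V209-Cho-Lip library (788 cells, against 187 in the PBS library), and cluster 11 holds 68.6% of the class in the PBS library (188 cells in the 1V209-Cho-Lip library, against 1065). Cluster 18 holds 474 and 301 cells. Its cells had a median of 1245 UMIs, against 2085 in cluster 1 and 1841 in cluster 11, and its leading genes include Adgrl3, Ldb2 and Pde3a.

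Gbp4 was lower in each of the 3 clusters. In cluster 1 it had 129 CPM in the 1V209-Cho-Lip library and 292 CPM in the PBS library (0.440), in cluster 11 it had 143 CPM against 292 CPM (0.491), and in cluster 18 it had 109 CPM against 269.8 CPM (0.405). With the shares of the clusters set equal its ratio was 0.452. That setting weights each cluster's CPM by its mean share of the class's cells in both libraries and leaves out very small clusters. Class values weight clusters by UMIs, so the setting changes this weight as well as the cluster shares.

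Irgm1 and Iigp1 behaved differently between the clusters. Irgm1 was at 170 CPM in the 1V209-Cho-Lip library against 64.2 CPM in the PBS library in cluster 18 (2.65, 1.71 to 4.25), but at 111 CPM against 103 CPM in cluster 1 (1.08) and at 47.8 CPM against 67.4 CPM in cluster 11 (0.709). With equal cluster shares its ratio was 1.28, under the 1.5-fold threshold. Iigp1 was at 268 CPM against 430.4 CPM in cluster 1 (0.622, 0.535 to 0.725), at 113 CPM against 239 CPM in cluster 11 (0.474, 0.342 to 0.643) and at 455 CPM against 401 CPM in cluster 18 (1.13). Equal cluster shares gave Iigp1 0.735, and the class value was 292 CPM in both libraries. Cluster 1 had 0 members higher and 7 lower against 17.1% and 14.4% of its genes, cluster 11 had 0 and 4 against 14.8% and 15.1%, and cluster 18 had 2 and 4 against 15.7% and 12.7%.

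Car4 capillary endothelial-like cells (716 and 864 cells), the capillary type next to the airspaces, also had Irgm1 higher and 4 GBP genes lower when summed over the class. Irgm1 had 53.9 CPM in the 1V209-Cho-Lip library and 32.1 CPM in the PBS library (1.68, 1.25 to 2.27), the 1 member higher, against 13.4% of genes. Gbp4 had 50.3 CPM against 82.4 CPM (0.610), and Gbp2b, Gbp3 and Gbp5 were lower as well, 4 members against 8.92%. With equal cluster shares Gbp4 was at 0.712 and Gbp5 at 0.686, under the 1.5-fold threshold, and Irgm1 at 2.17. Cluster 23 holds 70.5% of the class in the 1V209-Cho-Lip library and 71.4% in the PBS library, so it is filled alike. What moved these ratios was not tested. In cluster 23, the largest of the class, Irgm1 was the 1 member higher, at 48.7 CPM against 26.7 CPM (1.82, 1.24 to 2.69), against 12.7% of genes. There 2 of 9 members were lower, against 9.09%, with intervals that held 1. In cluster 40 Irgm1 was at 53.1 CPM against 57.8 CPM (0.919). There 5 of 9 members were lower against 15.2% of genes, 3 with intervals that left out 1, and none was higher against 16.8%.

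The lymphatic endothelial-like class is 1 cluster that also carries markers of other endothelium: 5 of 6 lymphatic, 5 of 6 venous and 6 of 6 arterial markers stood above the other cells, and Ccl21a, Mmrn1, Vwf and Slc6a2 were among its leading genes. In these cells (180 and 102 cells) Irgm1 was not called, at 78.0 CPM in the 1V209-Cho-Lip library and 93.1 CPM in the PBS library (0.838, 0.516 to 1.39). Iigp1 was at 238 CPM against 473 CPM (0.505, 0.399 to 0.639) and Gbp4 at 97.5 CPM against 200.04 CPM (0.487, 0.337 to 0.707). Gbp2b, Gbp3 and Gbp5 were also lower, 5 of 9 members against 17.8% of genes, and none was higher against 18.8%. Without the top cell of each library Gbp3 was at 0.676 and Gbp5 at 0.738, under the 1.5-fold threshold.

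The plot of 4 members over 10 classes sets these levels side by side. Gbp2 was highest in mesothelial-like cells, at 524 CPM (472 to 581) in the 1V209-Cho-Lip library and 541 CPM (470 to 618) in the PBS library, above every other class in both. Irgm1 was highest in general capillary endothelial-like cells in the 1V209-Cho-Lip library.

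**Figure D3:**
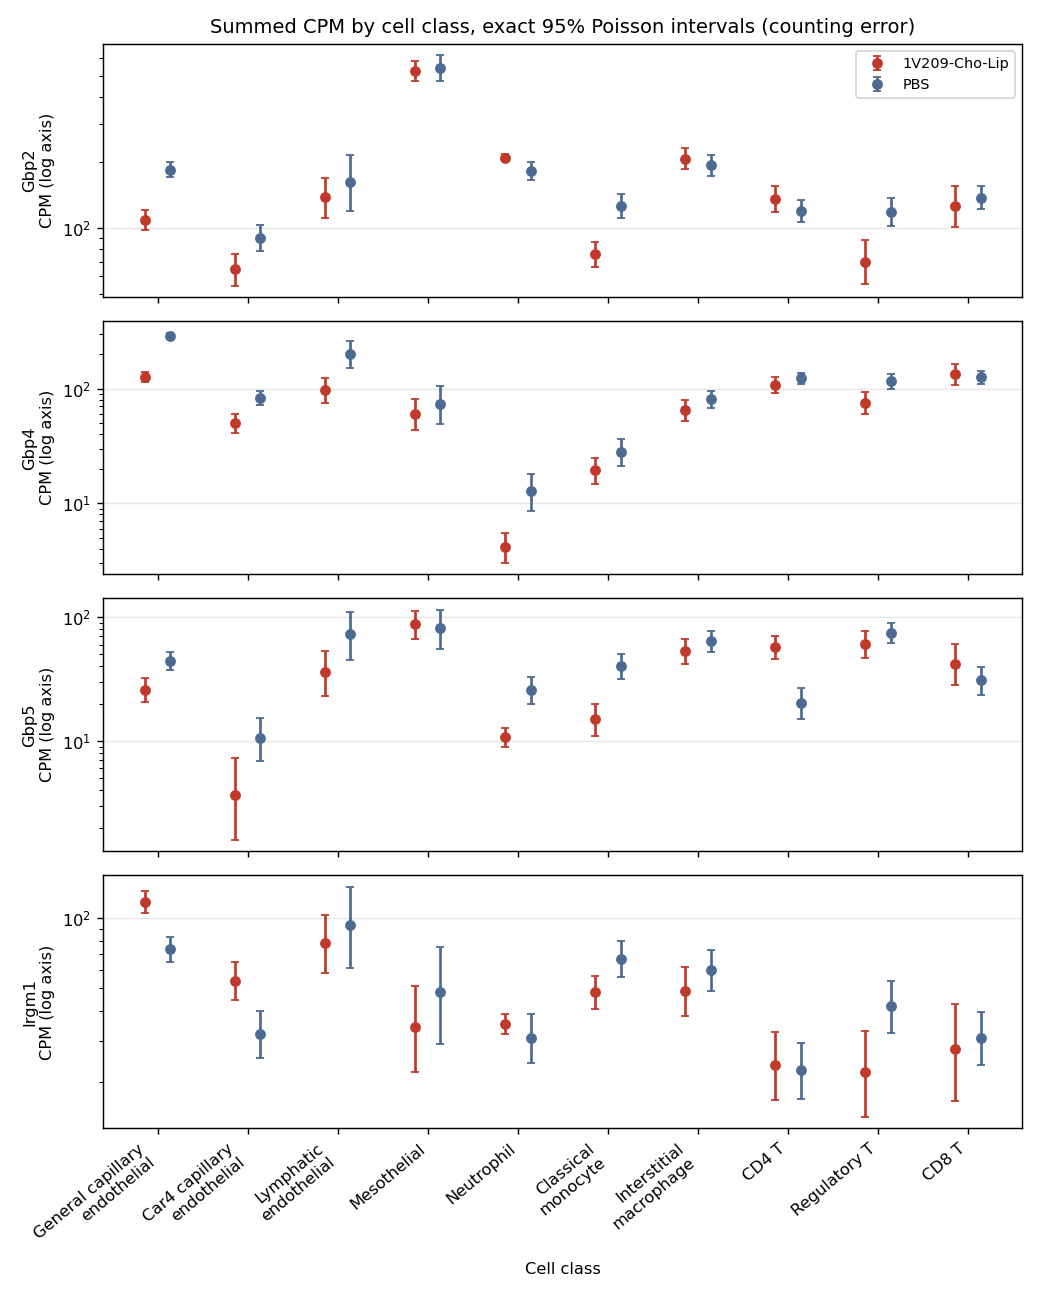
Summed CPM (log axis) of Gbp2, Gbp4, Gbp5 and Irgm1 in 10 classes in the 1V209-Cho-Lip library (red) and the PBS library (blue), with exact 95% Poisson intervals for counting error. The intervals lie apart for Gbp4 and Irgm1 in both capillary classes, in opposite directions, and for Gbp5 in CD4 T-like cells, where the 1V209-Cho-Lip library is higher at 57.4 against 20.4 CPM.

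In neutrophil-like cells the class value and the values within clusters went different ways. Over the class, Gbp4 had 4.12 CPM in the 1V209-Cho-Lip library and 12.7 CPM in the PBS library (0.324), and Gbp5 had 10.7 CPM against 25.8 CPM (0.414). Gbp8 had 4.90 CPM against 10.1 CPM (0.483) and Iigp1 4.20 CPM against 8.46 CPM (0.497). These 4 of 10 were called lower, against 23% of genes, and none was higher, against 11.2%.

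The libraries fill different clusters of this class. Cluster 20 holds 61.2% of neutrophil-like cells in the PBS library (418 cells in the 1V209-Cho-Lip library, against 963), and cluster 0 holds 29.1% of those in the 1V209-Cho-Lip library (1314 cells, against 140). Inside the 5 clusters with at least 50 cells in each library no member was lower with an interval that left out 1.

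In cluster 20 Irgm1 had 87.7 CPM in the 1V209-Cho-Lip library and 37.4 CPM in the PBS library (2.34, 1.56 to 3.53), and Gbp5 had 70.5 CPM against 38.2 CPM (1.84, 1.20 to 2.83). These 2 of 9 members were higher against 19% of genes, and 0 were lower against 10.6%. In cluster 0, 5 of 6 measured members were higher against 20.9% of genes, and 0 were lower against 18.7%. The interval left out 1 in 2 of these 5. There Gbp2 had 211 CPM against 129.7 CPM (1.62, 1.15 to 2.36) and Gbp7 had 85.2 CPM against 45.8 CPM (1.86, 1.05 to 3.65).

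With cluster shares set equal, a setting that also weights clusters by cells and not by UMIs, 2 ratios in neutrophil-like cells crossed 1. Gbp5 was at 1.45 and Gbp8 at 1.04, both on the other side of 1 from the class value. Irgm1 was then at 1.96, Gbp7 at 1.55, Gbp4 at 0.920 and Iigp1 at 0.567. With its 4508 cells in the 1V209-Cho-Lip library the class holds 38.9% of all Gbp2 UMIs there, against 8.64% in the PBS library.

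**Figure D4:**
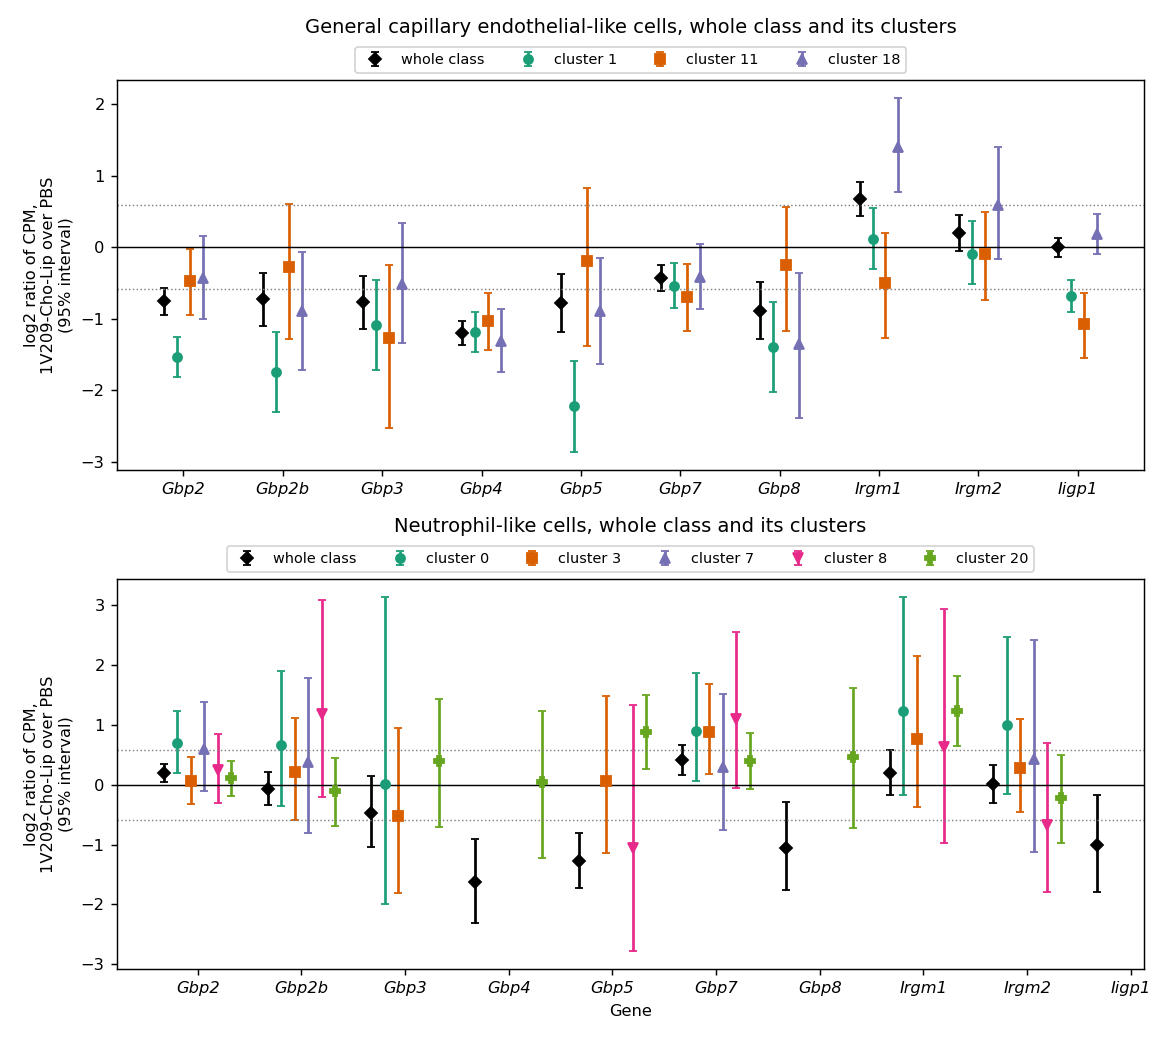
Log2 ratio of CPM, 1V209-Cho-Lip over PBS, with exact 95% intervals, in general capillary endothelial-like cells (top) and neutrophil-like cells (bottom), for the whole class (black) and for each cluster with at least 50 cells per library; only members with at least 20 UMIs are drawn and dotted lines mark 1.5-fold. Gbp4 lies below 0 in all 3 endothelial clusters, and Gbp5 in neutrophil-like cells lies below 0 for the class and above 0 in cluster 20.

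In CD4 T-like cells Gbp5 was higher. This gene, which promotes NLRP3 inflammasome assembly in macrophages, had 57.4 CPM in the 1V209-Cho-Lip library and 20.4 CPM in the PBS library (505 and 927 cells), a ratio of 2.82 (1.97 to 4.08). Gbp2b had 39.9 CPM against 24.1 CPM (1.66, 1.14 to 2.41). These 2 of 10 were higher against 12.7% of genes and none was lower against 6.76%. The clusters differ here too: cluster 22.0 holds 54.9% of the class in the 1V209-Cho-Lip library and cluster 22.2 holds 49.3% in the PBS library. With equal cluster shares Gbp5 was at 1.96 and Gbp2b at 1.67. The 6 neutrophil markers summed to 735 CPM in the 1V209-Cho-Lip library and 154 CPM in the PBS library in these cells, and their part in the ratios was not tested.

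Regulatory T-like cells (150 and 319 cells) went the other way. All 10 members had a ratio below 1 and 6 were called lower, against 7.98% of genes, with none higher against 15.4%. Iigp1 had 71.0 CPM in the 1V209-Cho-Lip library and 133 CPM in the PBS library (0.536, 0.407 to 0.700), Irgm1 had 22.1 CPM against 42.0 CPM (0.527) and Gbp2 had 70.1 CPM against 119 CPM (0.590). Cluster 15 holds 84.7% of these cells in the 1V209-Cho-Lip library and 88.1% in the PBS library, so the clusters are filled alike, and Iigp1 within it was at 67.8 CPM against 138 CPM (0.491).

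In CD8 T-like cells no member was called, against 12.2% of genes higher and 11.7% lower, and Gbp5 was at 42.1 CPM in the 1V209-Cho-Lip library and 30.8 CPM in the PBS library (1.36, 0.844 to 2.16). In gamma-delta T-like cells 4 of 7 members were lower against 10.4% of genes, among them Gbp4 at 77.3 CPM against 185 CPM (0.418) and Gbp2 at 61.9 CPM against 161 CPM (0.385). The cluster of this class had 4 gamma-delta T markers and also 5 markers of type 2 innate lymphoid cells above the other cells. In NK-like cells 3 of 9 were lower against 11.1%, and of these Irgm2 had an interval that left out 1, at 16.8 CPM against 37.6 CPM (0.446, 0.195 to 0.900). In B-like cells Irgm2 was the 1 member called, higher at 13.6 CPM against 6.75 CPM (2.01, 1.09 to 3.72, from 26 and 22 UMIs), against 12.7% of genes higher and 6.85% lower.

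Classical monocyte-like cells (406 and 330 cells), all in 1 cluster, had lower levels of 4 of the 5 GBP genes on chromosome 3. Gbp2b had 11.3 CPM in the 1V209-Cho-Lip library and 42.5 CPM in the PBS library (0.265, 0.174 to 0.396). Gbp5 had 15.01 CPM against 39.9 CPM (0.376, 0.256 to 0.546). Gbp2 had 75.7 CPM against 126 CPM (0.6003) and Gbp3 54.1 CPM against 86.1 CPM (0.628). These 4 of 10 were lower against 7.99% of genes, and none was higher against 12.6%. Gbp7, the fifth gene on chromosome 3, and Gbp4 on chromosome 5 were each at 0.692, under the 1.5-fold threshold.

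The other myeloid classes had fewer calls. In nonclassical monocyte-like cells 3 of 8 members were lower against 11.4% of genes, and of these Gbp3 had an interval that left out 1, at 24.1 CPM in the 1V209-Cho-Lip library and 57.4 CPM in the PBS library (0.419, 0.199 to 0.804). In interstitial macrophage-like cells 2 of 10 were lower against 9.61%: Gbp8 at 17.9 CPM against 53.7 CPM (0.334, 0.207 to 0.521) and Irgm2 at 16.5 CPM against 28.0 CPM (0.590). In cDC2-like cells (50 and 83 cells) Gbp5, Irgm1 and Iigp1 were lower, 3 of 8 against 13.5%, with Iigp1 at 18.9 CPM against 70.4 CPM (0.268, 0.126 to 0.521). In alveolar macrophage-like cells Iigp1 was higher at 7.25 CPM against 3.73 CPM (1.95, 1.05 to 3.66, from 27 and 20 UMIs), the 1 member higher against 9.86% of genes. With called doublets kept its log2 ratio was -0.22, the opposite direction, and with equal cluster shares the ratio was 1.47. There Gbp3 and Gbp4 were lower, 2 of 10 against 6.28%, with intervals that held 1.

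Fibroblast-like cells had little Gbp4 in the 1V209-Cho-Lip library. In adventitial fibroblast-like cells (89 and 74 cells) Gbp4 had 2 UMIs in the 1V209-Cho-Lip library and 30 in the PBS library, or 3.81 CPM against 88.9 CPM, a ratio of 0.0428 (0.00496 to 0.169). All 7 measured members were lower there, against 19% of genes, and none was higher, against 16.3%. In alveolar fibroblast-like cells (606 and 307 cells) Gbp4 was at 4.79 CPM against 28.8 CPM (0.166, 0.0719 to 0.355), and Gbp7, Irgm1 and Irgm2 were lower too, 4 of 9 against 13% of genes, with none higher against 16.2%. Irgm1 in this class had 44.0% of its PBS UMIs in 1 cell and was at 0.887 without the top cells.

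Mesothelial-like cells (77 and 64 cells) had the highest summed level of the 10 genes among the 25 classes, at 1203 CPM in the 1V209-Cho-Lip library and 1662 CPM in the PBS library. Iigp1 was at 140 CPM against 360.4 CPM (0.389, 0.297 to 0.506) while Gbp2 was level at 524 CPM against 541 CPM, and 5 of 10 members were lower against 12.7% of genes, with none higher against 19.5%. High sums were also found in general capillary endothelial-like cells, with 979 CPM against 1293 CPM, and lymphatic endothelial-like cells, with 862 CPM against 1393 CPM. Interstitial macrophage-like cells had 776 CPM against 908 CPM.

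Epithelial-like classes had low sums. The summed level was 42.9 CPM in the 1V209-Cho-Lip library and 159 CPM in the PBS library in AT1-like cells, 54.3 CPM against 57.4 CPM in club or secretory-like cells, and 115 CPM against 108 CPM in AT2-like cells. Values in these classes rest on few cells. In AT1-like cells Iigp1 had 1 UMI against 26, and 96.2% of the PBS UMIs were in 1 cell. In AT2-like cells Iigp1 had 43.4 CPM against 28.7 CPM (1.51), but 91.1% of its UMIs in the 1V209-Cho-Lip library were in 1 cell, and without the top cell of each library the ratio was 0.218. In pericyte-like cells 85.4% of the Gbp4 UMIs of the PBS library were in 1 cell.

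Few members were measured in these and the other small classes. In AT1-like cells 1 of 1 was lower against 11.2% of genes, and none higher against 19.8%. In AT2-like cells 2 of 7 were higher against 12.3% and 2 lower against 11%. In club or secretory-like cells 1 of 1 was higher against 23.4%, and none lower against 9.53%. In pericyte-like cells 3 of 4 were lower against 15%, and none higher against 28.6%. Platelet-like cells had 2 of 4 higher against 14.8%, among them Gbp2 at 108 CPM in the 1V209-Cho-Lip library and 51.4 CPM in the PBS library (2.09, 1.02 to 4.42). The main cluster of this class holds 85.7% and 82.3% of its cells. Beside 4 platelet markers it had 6 B-cell and 6 CD4 T-cell markers above the other cells. Smooth muscle or myofibroblast-like cells had 1 of 2 higher against 17.6%. With equal cluster shares Gbp2 and Iigp1 in AT2-like cells, at 1.38 and 1.49, and Gbp7 in platelet-like cells, at 1.28, were under the 1.5-fold threshold.

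The share of cells with a UMI was compared after thinning each cell to 1000 UMIs, which leaves out shallower cells. Of the 186 measured pairs, 2 had a higher share with intervals that did not overlap, a rate below the 1.95% of all gene and class pairs. A lower share was found in 4, a rate above the 1.13% of all pairs. Both counts are small and near the background, so the pairs are given as single values. Gbp4 was detected in 9.19% of general capillary endothelial-like cells of the 1V209-Cho-Lip library and in 19.9% of those of the PBS library (unthinned, 15.7% and 30.8%). Gbp2 was detected in 9.59% against 13.8% and Gbp8 in 2.46% against 5.26% of the same cells, and Gbp5 in 0.801% against 1.82% of neutrophil-like cells.

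The higher shares were those of Irgm1 in general capillary endothelial-like cells, at 9.51% in the 1V209-Cho-Lip library and 6.07% in the PBS library (unthinned, 15.6% and 11.5%), and of Gbp5 in CD4 T-like cells, at 5.47% against 2.12% (unthinned, 14.1% and 4.85%). For the level of free RNA, AT1-like cells, which have few UMIs of these genes, held Gbp4 in 0.847% of cells in the 1V209-Cho-Lip library and 1.14% in the PBS library, and Irgm1 in 2.12% and 3.41%, unthinned, at median depths of 3071 and 3434.5 UMIs per cell. The endothelial class had median depths of 1772.5 and 1737 UMIs. Gbp5 was held by 0.424% of AT1-like cells in the 1V209-Cho-Lip library and by 0 of 88 in the PBS library, also unthinned. The shares of Gbp5 in neutrophil-like cells are thinned, so the 2 sets differ in depth. The part of free RNA in the shares was not tested. A UMI of any member was found in 45.6% of thinned general capillary endothelial-like cells of the 1V209-Cho-Lip library against 58.2% in the PBS library, in 21.5% against 31.9% of classical monocyte-like cells and in 41.3% against 35.3% of CD4 T-like cells. Over the whole library it was 29.6% against 30.5%. The intervals of the CD4 T-like shares overlapped (36.9% to 45.8% and 32.1% to 38.5%). Some classes had a higher share where their summed CPM was lower. These include mesothelial-like cells, at 60.8% against 50%, and alveolar fibroblast-like cells, at 25.9% against 22.6%, with intervals that overlapped as well.

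The Def8-led cells had more members called higher than any of the 25 classes. They are 43 cells in the 1V209-Cho-Lip library and 128 in the PBS library, too few for the rule on classes, and none of the marker lists names them. The 10 genes summed to 1250 CPM in the 1V209-Cho-Lip library and 452 CPM in the PBS library, a ratio of 2.77 (2.63 to 2.91). Here 9 of 10 members were higher, against 11.7% of genes, and none was lower, against 11.5%.

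Gbp5 differed most. It had 54.8 CPM in the 1V209-Cho-Lip library and 6.06 CPM in the PBS library, a ratio of 9.04 (6.29 to 13.3), or 6.35 without the top cell of each library, since 46.3% of its UMIs in the 1V209-Cho-Lip library were in 1 cell. Gbp2b had 102 CPM against 21.4 CPM (4.76, 3.86 to 5.90) and Iigp1 342 CPM against 84.1 CPM (4.07, 3.65 to 4.53). Gbp2 had 354 CPM against 145 CPM (2.44, 2.23 to 2.68). Gbp3, Gbp4, Gbp7, Irgm1 and Irgm2 had ratios from 1.84 to 2.43, and Gbp8 was at 1.43 (0.854 to 2.37).

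The members were higher in 2 of the 3 clusters of these cells. In cluster 43.1, led by Def8, Crabp2, Prl2c2, Il1rl1 and Col1a1, all 10 members were higher, against 14.9% of genes, and the sum was 1627 CPM in the 1V209-Cho-Lip library (20 cells) and 385 CPM in the PBS library (68 cells). The median cell there had 648 CPM against 209.2 CPM, and 9 of 20 cells were above 1000 CPM, against 4 of 68. Gbp5 was at 79.2 CPM against 5.26 CPM (15.1, 9.19 to 25.98), with 63.0% of its UMIs in the 1V209-Cho-Lip library in 1 cell and a ratio of 10.3 without the top cells, and Iigp1 at 459.9 CPM against 55.7 CPM (8.26, 7.04 to 9.74).

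In cluster 43.2, led by the cell-division genes Ube2c, Cdk1 and Cdc20, 2 members were higher and 1 lower, against 15.2% and 9.68% of genes. Its sum was 621 CPM in the 1V209-Cho-Lip library (18 cells) and 574 CPM in the PBS library (41 cells). In cluster 43.0 (5 and 19 cells) all 7 measured members were higher, against 15.8% of genes, with a sum of 6144 CPM in the 1V209-Cho-Lip library and 282 CPM in the PBS library (21.8, 17.0 to 28.2), and 95.1% of the UMIs in the 1V209-Cho-Lip library came from 1 cell. Cells of a library are not replicates, and with 3 pooled mice it cannot be told whether the cells with high values came from 1 mouse.

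**Figure D5:**
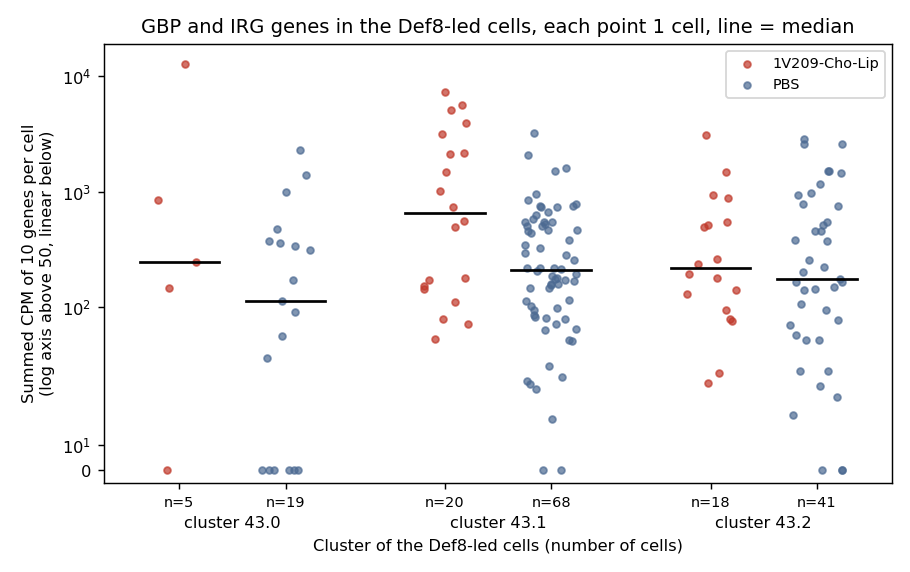
Summed CPM of the 10 genes in each of the Def8-led cells, by cluster, in the 1V209-Cho-Lip library (red) and the PBS library (blue); the axis is logarithmic above 50 CPM and linear below, and lines are medians. In cluster 43.1 the medians are 648 and 209.2 CPM, and in cluster 43.2 they are 217 and 176 CPM.

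Markers of other cells were measured in the same Def8-led cells. The 6 neutrophil markers summed to 357 CPM in the 1V209-Cho-Lip library and 78.8 CPM in the PBS library, all 6 with a UMI in both. Those of classical monocytes summed to 451 CPM against 386 CPM, those of interstitial macrophages to 16.8 CPM against 26.8 CPM, and those of CD8 T cells to 2.24 CPM against 21.4 CPM. In the 1V209-Cho-Lip library the 10 genes summed to 463 CPM over all neutrophil-like cells and to 1250 CPM over the Def8-led cells. By cluster, the 6 neutrophil markers summed to 562 CPM in the 1V209-Cho-Lip library and 73.4 CPM in the PBS library in cluster 43.1. In cluster 43.2 they summed to 140 CPM against 49.2 CPM. The part of neutrophil RNA in the ratios was not tested.

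The pathway around the members was followed in lists of genes. The ligand gene Ifng, which encodes interferon-gamma, was at 2.001 CPM in the whole 1V209-Cho-Lip library and 5.11 CPM in the PBS library (0.391). Of 19 genes for the ligand, receptor and signalling, 1 was called higher and 5 lower, with a median log2 ratio of -0.14. Over all genes in the whole library 13.6% were higher and 19.5% lower, which is the background for the counts of each list. Ifngr2, a receptor chain, was the higher one at 98.5 CPM against 65.4 CPM (1.51). Il12b, Il12rb1, Il12rb2 and Irf8, which act in interleukin-12 signalling and in interferon-driven transcription, were lower with ratios of 0.407 to 0.539. Stat3 was at 1.40 and Irf9 at 1.33. Whole-library values in all lists also depend on how many cells of each type a library holds. NK-like cells numbered 173 in the 1V209-Cho-Lip library and 684 in the PBS library, and CD8 T-like cells 173 and 599. In NK-like cells 1 of 16 signalling genes was higher and 1 lower, against 13.5% and 11.1% of genes, with a median of -0.03. The part of cell mix in these values was not tested.

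Among negative regulators Socs1 had the highest ratio. Socs1, an inhibitor of the JAK kinases that interferon-gamma itself induces, had 40.8 CPM in the 1V209-Cho-Lip library and 5.42 CPM in the PBS library, and Socs3 had 226 CPM against 107 CPM (2.11). These 2 of 8 were higher and none lower, with a median of 0.12. In general capillary endothelial-like cells Socs1 was at 51.3 CPM against 7.76 CPM (6.62, 4.35 to 10.4). In the same cells Irf1, a transcription factor that induces GBP genes, was at 890.2 CPM against 478 CPM (1.86, 1.75 to 1.98), and Cxcl10 at 7.75 CPM against 24.8 CPM (0.313). In the Def8-led cells Socs1 was at 110 CPM against 6.06 CPM.

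The list of other GBP and IRG genes also holds the atlastin genes Atl1, Atl2 and Atl3, which belong to neither family. Of its 18 genes, none was higher and 3 were lower in the whole library, a share below the 19.5% of all genes. The lower ones were Gbp6 (0.592), Gbp10 (0.373) and Gbp11 (0.533), and the median of the list was -0.31. Tgtp1, an IRG effector, was at 1.01, F830016B08Rik at 1.03 and Irgq at 0.949. Of 20 other interferon-gamma target genes, Rsad2, an antiviral enzyme gene, was higher at 94.8 CPM against 43.7 CPM (2.17) and Ciita, the regulator of MHC class II, was lower (0.561), with a median of -0.11. Psmb8 was at 0.675, Nlrc5 at 0.732, Irf7 at 1.44 and Nos2 at 1.13. Several genes of this list, among them Rsad2, Irf7 and Ifit3, are also induced by type I interferons. The list therefore does not tell the interferons apart.

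Of 15 genes for the ubiquitin-like conjugation that loads GBPs and IRGs onto vacuoles, 3 were higher and none lower, with a median of -0.03. Atg3, the conjugating enzyme, had 232 CPM in the 1V209-Cho-Lip library and 46.9 CPM in the PBS library (4.95), Map1lc3a was at 2.46 and Map1lc3b at 1.70. Of 10 inflammasome genes, Il1b (3.73) and Nlrp3 (2.40) were higher and the DNA sensor gene Aim2 lower (0.664), with a median of -0.14. Over all genes the median was -0.20. The lists were chosen with earlier results of these data known, and their medians for signalling, targets and inflammasome genes turn above 0 with TMM or median-of-ratios scaling.

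In the Def8-led cells the related genes were higher as the members were. Of 15 measured genes in the list of other GBP and IRG genes, 11 were higher and none lower (median 1.34), against 11.7% and 11.5% of all genes. The atlastin gene Atl1 is among the 11. Igtp was at 81.7 CPM in the 1V209-Cho-Lip library and 31.6 CPM in the PBS library (2.58) and Ifi47 at 87.6 CPM against 31.1 CPM (2.82). Of 17 other interferon-gamma targets, 14 were higher and none lower (median 1.15), with the chemokine genes Cxcl9 at 201 CPM against 30.8 CPM (6.53) and Cxcl10 at 601 CPM against 119 CPM (5.07), and Cd274, which encodes PD-L1, at 77.2 CPM against 10.9 CPM (7.11). The higher targets include Rsad2, Irf7 and Ifit3, which type I interferons also induce. Of 17 signalling genes, 4 were higher and 1 lower. In cluster 43.2 alone, 5 targets of 17 were higher and 2 lower, against 15.2% and 9.68% of genes.

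The genes whose levels followed the 10 members most closely over classes were found by correlation. The measure was Pearson's r between the log2 of each gene's CPM plus 1 and the members' mean on the same scale, each member standardised, over 50 points, 25 classes in 2 libraries, among 13536 genes with at least 200 UMIs. The 5 closest were Gm12250 (r = 0.86), Lgals9 (0.81), Tap2 (0.80), Herc6 (0.79) and Tgtp2 (0.79). With 10 CPM added in place of 1, 3 of these 5 were again among the closest. Between the members themselves, the 45 pairs had r from 0.12 for Iigp1 and Gbp8 to 0.90 for Gbp2b and Gbp2, with a median of 0.58. The points share libraries and depth, so these are descriptions only.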

How the data were processed

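Lung cells of 1 library per group, each pooled from 3 mice, were measured by 10x single-cell RNA sequencing. The deposited count matrices hold raw UMI counts per gene and barcode, made by Cell Ranger 9.0.1, per the file headers, on mm10, per the submitters' processing notes; the annotation release is not given in the sources used here. The labels' protocols name a total RNA kit beside the 10x kit. The files held 13740 barcodes and 54843992 UMIs in the 1V209-Cho-Lip library and 14622 barcodes and 58156102 UMIs in the PBS library.

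A barcode was kept from 500 UMIs and 200 genes upward where mitochondrial UMIs made up no more than 20%, which took out 11 and 9 barcodes of the 1V209-Cho-Lip library and 56 and 6 of the PBS library on genes and mitochondrial share. Scrublet, as carried by scanpy 1.11.5, called 1392 doublets (10.1%) in the 1V209-Cho-Lip library and 1918 (13.2%) in the PBS library, which were left out. Cells of both libraries were clustered together (up to 2000 variable genes per library, 30 components, 15 neighbours, Leiden resolution 2), without the members, the list genes, other interferon and stress genes, and mitochondrial, ribosomal, haemoglobin, MHC and receptor genes. A cluster took a type's name where 3 or more of its markers, and 50% of the list, stood 1 or more above the other cells on the log2 scale; mixed clusters of at least 100 cells were divided at resolution 0.5, giving 83 clusters. These naming thresholds were set after clusters had been seen.

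UMIs were summed per class and library, scaled to CPM, and compared by ratio with exact intervals at 95%; where a library had 0 UMIs, 3 counts stood in. A member needed 20 UMIs over both libraries. No test was possible with 1 library per group. The steps were tested on simulated data. Positions come from GENCODE vM21 (GRCm38), which matched 52081 of the 55357 gene identifiers, and promoter windows from RefSeq (GRCm38.p6). All 10 members are named in each comparison with a value; from each list up to 6 genes are named, the 3 highest and 3 lowest whole-library ratios with at least 100 UMIs, and the 5 genes nearest by likeness. Irf8 and Il12rb1 in the whole library lie outside this rule. They and the list genes given within classes or the Def8-led cells outside the rule were picked with their values in view. The members and lists were chosen with earlier results of these data known. Alternatives covered doublets, cell filter, scaling, weight of cells, thinning, class mix, minimum UMIs, clustering resolution, fold and motif spacing.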

Additional observations from a re-analysis of the deposited data

Results flagged for a closer look

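Several members were lower in some classes and higher in others, in each case with intervals that left out 1; with 1 library per group none of these differences was tested, and the values are log2 ratios of 1V209-Cho-Lip over PBS. Gbp2 was lower in 6 classes and at 0.64 in AT2-like cells, 1.07 in platelet-like cells and 1.29 in the Def8-led cells. The main platelet-like cluster also carries B-cell and CD4 T-cell markers. Gbp2b was lower in 6 classes and at 0.73 in CD4 T-like cells and 2.25 in the Def8-led cells. Gbp5 was lower in 7 classes and at 1.496 in CD4 T-like cells and 3.18 in the Def8-led cells. Gbp3, lower in 5 classes, was at 1.00 in the Def8-led cells, Gbp4, lower in 9, at 1.19, and Gbp7, lower in 4, at 1.01.

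Among the IRG genes, Irgm1 was lower in 4 classes and at 0.75 in Car4 capillary endothelial-like cells, 0.67 in general capillary endothelial-like cells and 0.88 in the Def8-led cells. Irgm2 was lower in 4 classes and at 1.01 in B-like cells and 1.28 in the Def8-led cells. Iigp1 was lower in 8 classes and at 0.60 in AT2-like cells, where 91.1% of the UMIs of the 1V209-Cho-Lip library were in 1 cell, at 0.96 in alveolar macrophage-like cells, which became -0.22 with called doublets kept, and at 2.02 in the Def8-led cells.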

How the results depend on the processing

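No paired analysis was possible because each group has 1 library. With 3 pooled mice per library, mouse and treatment cannot be told apart, and intervals cover counting error only. In the whole library the members' median log2 ratio was 0.13 with TMM scaling (1 member higher), 0.10 with median-of-ratios scaling and -0.28 without the Def8-led cells, against -0.06; Gbp4 and Gbp8 were lower in each of these. Class pairs called higher numbered 12 of 186 measured in the main setting. They numbered 6 with doublets kept (of 198 measured), 7 without the top cell of each library, 6 with a minimum of 100 UMIs (of 90 measured) and 4 at 2-fold. Those lower numbered 68 of 186 in the main setting. They numbered 35 thinned to 1000 UMIs (of 104 measured), 27 with a minimum of 100 UMIs (of 90 measured) and 35 at 2-fold. Shares over all genes at these settings are not given. The other settings gave 10 to 14 higher and 59 to 81 lower.

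Some single values turned, with causes not tested. AT2-like Gbp2 was at -0.12 with doublets kept and -0.49 thinned, and AT2-like Iigp1 at -0.97 with CPM averaged over cells, -1.17 thinned and -2.20 without the top cell. Alveolar macrophage-like Iigp1 was at -0.22 with doublets kept. Alveolar fibroblast-like Irgm1 was at 0.21 with CPM averaged over cells and 0.64 thinned, mesothelial-like Gbp8 at 0.28 with the same average, regulatory T-like Gbp2b at 0.18 and cDC2-like Iigp1 at 0.74 thinned. Neutrophil-like Gbp5 was at 0.53 and Gbp8 at 0.060 with equal cluster shares. Without thinning, 11 of the 186 measured pairs had a higher share of cells, a rate below the 11.7% of all pairs. A lower share was found in 7, a rate above the 0.87% of all pairs.

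List medians under TMM and median-of-ratios scaling were -0.11 and -0.14 for other GBP and IRG genes, 0.057 and 0.025 for signalling, 0.086 and 0.054 for targets, 0.32 and 0.28 for negative regulators, 0.17 and 0.14 for loading machinery and 0.053 and 0.022 for inflammasome genes. The spaced motif TTC, 4 bases, GAA was in 1 member gene. In cluster 43.2 alone 2 members were higher. Leaving out the Def8-led cells or top cells, single Def8-led clusters and equal cluster shares were chosen after seeing the data.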

Other observations

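In the class named lymphatic endothelial-like, 1 cluster that also carries venous and arterial markers, 5 of 9 members were lower while other interferon-gamma target genes were not. Of 13 measured targets 7 were higher there in the 1V209-Cho-Lip library and none lower, against 18.8% and 17.8% of genes, with a median log2 ratio of 0.80. Of 9 measured genes in the list of other GBP and IRG genes, 4 were lower and none higher. Cxcl10, a chemokine gene, had 61 UMIs in the 1V209-Cho-Lip library and 1 in the PBS library, or 91.5 CPM against 3.45 CPM (26.5, 4.59 to 1065). The neutrophil gene S100a8 was at 6481 CPM against 248 CPM in the same cells, and its part in these values was not tested. In general capillary endothelial-like cells the same target list had 7 of 17 lower, against 9.92% of genes, and in classical monocyte-like cells 7 of 15 lower, against 7.99%, with none higher in either. The difference between these classes was not tested.

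Socs1 was higher in each class where it had at least 20 UMIs over both libraries. It was at 121 CPM in the 1V209-Cho-Lip library and 8.31 CPM in the PBS library in CD4 T-like cells (14.6, 9.18 to 24.4), and at 22.2 CPM against 2.54 CPM in neutrophil-like cells (8.77, 3.97 to 24.1). In neutrophil-like cells Cd274 was at 70.4 CPM against 154 CPM (0.456, 0.403 to 0.518), where the Def8-led cells had it higher at 77.2 CPM against 10.9 CPM.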
